A study of Mus musculus with 9 samples.

Results

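The subject of this report is a set of 141 genes for enzymes of phase I and phase II drug metabolism, chosen by gene name out of the 55401 entries of a table of colonic gene expression in mice. The set holds every entry named as a cytochrome P450 of families Cyp1 to Cyp4 (81 genes), a UDP-glucuronosyltransferase of Ugt1a, Ugt2a or Ugt2b (19 genes), a carboxylesterase of Ces1 to Ces5 (19 genes) or a cytosolic or kappa class glutathione S-transferase (22 genes). The name rule also takes in Cyp4x1os, an antisense transcript of Cyp4x1 and not an enzyme, which was too low to test. Another 34 entries whose names end in -ps, the mark of a pseudogene, were left out. RNA was sequenced in 9 libraries of colonic tissue from wild type mice, 3 per group. The chow group and the high-fat diet group both carry AOM/DSS in their sample names, an abbreviation commonly used for the carcinogen azoxymethane given with the irritant dextran sulfate sodium, by which tumours are raised in an inflamed colon. The third group received berberine, an alkaloid from plants such as barberry, and the series sets out to profile expression in the 3 groups. Whether the berberine group also received the high-fat diet or AOM/DSS, the dose, and the strain, age and sex of the animals are not given in the sources used here. The labels do not say that the 3 libraries of a group came from 3 animals, so the p-values below measure the spread between these libraries, which may be technical.

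Drug metabolism is usually described in steps. Phase I enzymes expose or add a reactive group: cytochromes P450 do so by oxidation, with electrons passed on by P450 oxidoreductase, and carboxylesterases by cutting esters and amides. Phase II enzymes attach a water-soluble group, glucuronic acid in the case of the UDP-glucuronosyltransferases and glutathione in the case of the glutathione S-transferases, after which transporters carry the product out of the cell. The liver is the main site, but the absorptive epithelium of the gut carries the same machinery and meets food compounds and drugs first. Nuclear receptors such as PXR and CAR, the aryl hydrocarbon receptor and the factor NRF2 are known to switch these genes on when foreign compounds enter the cell.

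Levels are given per library as CPM, the deposited estimated counts scaled to TMM-adjusted library sizes, in the order of replicates 1, 2 and 3, and levels are compared between genes only as FPKM, which also divides by transcript length. Rose and fell are used where edgeR's quasi-likelihood test gave an adjusted p (Benjamini-Hochberg) under 0.05. It was run over the 14506 genes whose mean FPKM reached 1. That filter kept 63 of the 141 genes: 27 cytochromes P450, 7 UDP-glucuronosyltransferases, 9 carboxylesterases and 20 glutathione S-transferases. The other 78 were too low to test, of which 18 had no count in any library. Counts of tested genes therefore describe the genes that this tissue expresses in at least some libraries, and a gene near 0 in 1 group could pass through its level in another.

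Library totals ran from 51961764 to 69007117 estimated counts, where 1 fragment of a gene is about 4 counts, or 0.0554 to 0.0775 CPM. Chow replicate 2 stood apart: it was the highest of the 9 libraries for 32 of the 63 tested drug metabolism genes, against 13.6% of all tested genes. A list of 6 proximal colon genes summed to 655 CPM in that library and to 96.2 and 67 CPM in the other chow libraries. Fabp2 alone gave 489.6 CPM of that sum, and Hoxb6, Hoxb7 and Hoxb8 were also highest there. Cwh43 (41.2, 40.4 and 26.2 CPM on chow) and Gpr37l1 (5.6, 6.22 and 6.75 CPM) did not stand out in that library. Berberine replicates 1 and 2 held more adipocyte RNA than berberine replicate 3, with 1347, 1165 and 319.7 CPM summed over 11 adipocyte markers. The same sums were 340 to 492 CPM on chow and 51.7 to 80.8 CPM on the high-fat diet. Pck1 alone gave 247.9, 241 and 256 CPM of the berberine sums. It stood at 208 to 291 CPM on chow and 3.28 to 14 CPM on the high-fat diet. Adipoq, of the same list, had 60.9, 49.1 and 0.313 CPM with berberine. Of 16 markers of absorptive colonocytes, the cells that line the colon surface, 13 were lower on the high-fat diet than on chow, and their summed level was 12884 to 19406 CPM on chow, 3366 to 5361 CPM on the high-fat diet and 11995 to 17622 CPM with berberine. Of 12 goblet cell markers 9 were lower on the high-fat diet, with sums of 10868 to 32904, 1043 to 6761 and 15209.7 to 27968 CPM. A list of 17 general epithelial genes moved less, with sums of 16037 to 17641, 11508 to 14916 and 14608 to 17582 CPM. Other cell types moved as well: 12 smooth muscle genes summed to 10121 to 14152, 1696 to 7974 and 5030.4 to 6007 CPM in the same order of groups, and 6 of them were lower on the high-fat diet than on chow. Of 9 B cell markers 8 were lower on the high-fat diet and all 9 higher with berberine than on it, and of 10 T cell markers 7 were lower (1 higher) and then 8 higher (1 lower). Of 8 Paneth cell markers 5 were higher on the high-fat diet and 6 lower with berberine. Chow replicate 3 held the most striated muscle RNA, 1532 CPM over 10 genes against 7.86 to 57.7 CPM in the other libraries, and chow replicate 1 the most squamous epithelial RNA, 339 CPM over 9 genes against 3.13 to 162 CPM. Fewer cells of a type and less RNA per cell cannot be told apart in bulk tissue, and the part that these marker differences play in the results below was not tested. Hepatocyte markers, which would show liver RNA, were low but uneven. The 12 genes summed to 56.3 to 122 CPM on chow and 59.5 to 87 CPM on the high-fat diet. With berberine they summed to 134 to 172 CPM. Of them 1 was higher on the high-fat diet than on chow, and 3 were higher with berberine than on the high-fat diet. The albumin gene Alb had 1.29, 1.26 and 0.841 CPM on chow and 24.1, 9.82 and 7.73 CPM on the high-fat diet. With berberine it had 10.9, 1.85 and 12 CPM. Ttr and Tat made up most of the hepatocyte sum in every library. In berberine replicate 2 they had 60.7 and 56 CPM, while Hpx had 0.179 CPM and Fgb 0. Hpx had 0, 0.151 and 0.369 CPM on chow and 1.04, 4.29 and 3.48 CPM on the high-fat diet. With berberine Hpx had 4.17, 0.179 and 4.43 CPM, so the sum and its smaller members did not order the groups alike. The part of liver RNA in the results below was not tested. None of the listed markers was at 0 throughout.

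The summed level of the whole set was lowest, and least spread, on the high-fat diet. All 141 genes together made up 4292, 9420.2 and 3867 CPM on chow, 1492, 1480.1 and 1425 CPM on the high-fat diet and 2885, 3775 and 3695 CPM with berberine. The 3 high-fat diet libraries lay below all others and the berberine libraries below all chow libraries. The 81 cytochromes P450 summed to 1951, 4889 and 1656 CPM on chow, 336, 328 and 314 CPM on the high-fat diet and 1105, 1525 and 1484 CPM with berberine. Without Cyp2c55 the same sums were 1131, 1471 and 1312, 330.4, 326 and 311 and 1068, 1463 and 1417 CPM, so that the chow and berberine libraries overlapped once this gene was left out. The glutathione S-transferases differed least between groups, with 1189.6, 1370.5 and 1390.4 CPM on chow, 942, 878 and 885 CPM on the high-fat diet and 1021, 1062 and 1055 CPM with berberine, again with no overlap between the groups.

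**Figure D1:**
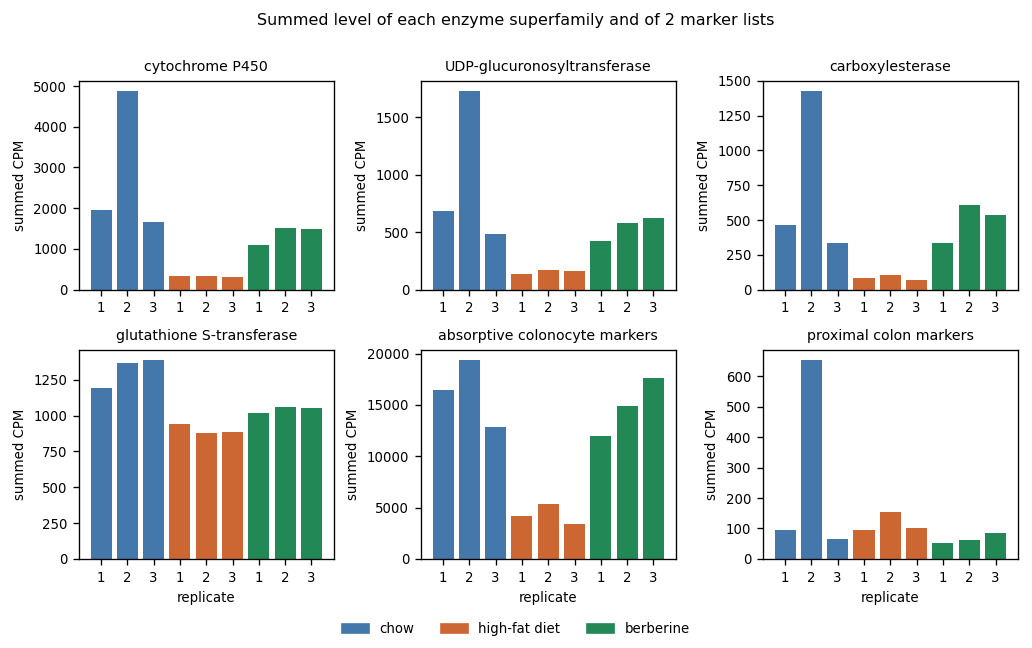
Summed CPM (vertical axis, linear from 0) of the 4 enzyme superfamilies and of 2 marker lists in each of the 9 libraries, coloured by group, with the replicate number on the horizontal axis. The 3 high-fat diet bars are the lowest in the 4 superfamilies and in the absorptive colonocyte markers, and chow replicate 2 stands above the rest for cytochromes P450, UDP-glucuronosyltransferases, carboxylesterases and proximal colon markers.

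Between the high-fat diet and chow, 43 of the 63 tested genes fell and 2 rose, where 31.8% of all 14506 tested genes changed, 16.6% downward and 15.2% upward. The median log2 fold change was -2.02 over the 63 genes and 0.002 over all tested genes. By superfamily, 21 of 27 cytochromes P450 fell (median -2.83), 5 of 7 UDP-glucuronosyltransferases (median -5.03), 7 of 9 carboxylesterases (median -4.15) and 10 of 20 glutathione S-transferases (median -0.80). The 2 genes that rose, Gstm5 and Gstm7, are both glutathione S-transferases of the mu class. Groups did not overlap for 44 genes that were lower and 3 that were higher, where 22.6% and 23.2% of all tested genes lay apart in these directions. Leaving out chow replicate 2 gave 40 genes lower and 2 higher, and moved the median to -1.54 for the UDP-glucuronosyltransferases and to -2.6 for the carboxylesterases, while that of the P450 genes was -2.74.

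Berberine libraries against high-fat diet libraries gave the opposite picture, with 34 of the 63 genes higher and 4 lower, where 30.7% of all tested genes changed, 15.8% upward and 14.9% downward. The median log2 fold change over the 63 genes was 1.86, against -0.007 over all tested genes. Groups did not overlap for 47 genes that were higher and 5 that were lower, where 24.8% and 25.6% of all tested genes lay apart. The 4 lower genes were Gstm5, Gstm7, Gsta4 and Cyp2b10. By superfamily 19 of 27 cytochromes P450, 3 of 7 UDP-glucuronosyltransferases, 6 of 9 carboxylesterases and 6 of 20 glutathione S-transferases were higher. The high-fat diet libraries enter both comparisons, so the directions are not independent of each other: 33 genes were lower in the first and higher in the second, 2 were higher and then lower, 10 were lower with no call in the second, and 15 passed in neither. Without berberine replicates 1 and 2, whose adipocyte markers are high, the counts were 22 higher and 1 lower, with berberine replicate 3 as the lone library of its group and assumed to vary like the others.

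Between berberine and chow, none of the 63 genes passed in edgeR, where 0.0483% of all tested genes did. An unadjusted p under 0.05 was reached by 17 of the 63 genes against 10.9% of all tested genes, limma called 0, and DESeq2 called 4 of the 63 lower: Cyp2c55, Gstm3, Gsta4 and Ces1g. Groups did not overlap for 10 genes that were lower with berberine and for 1 that was higher, where 9.37% and 8.73% of all tested genes lay apart in these directions.

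**Figure D2:**
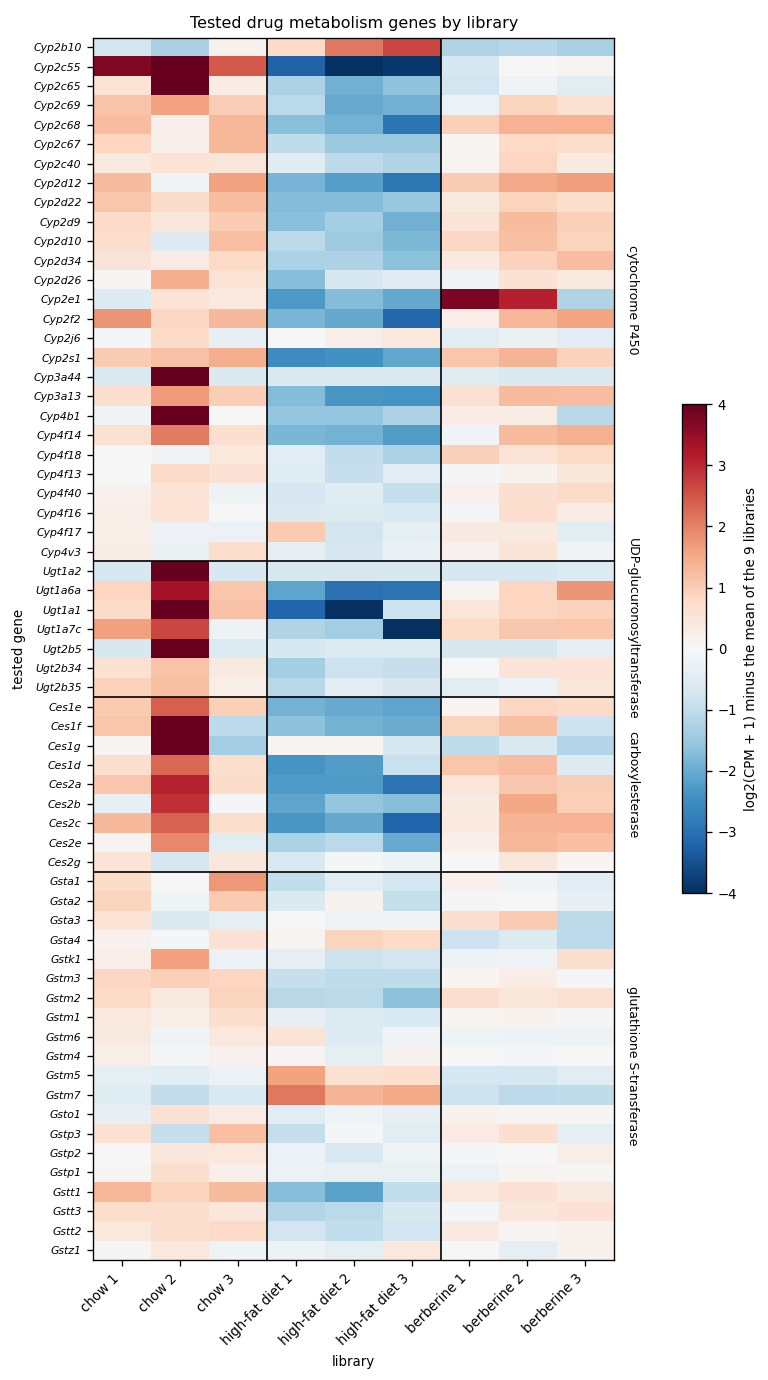
Level of the 63 tested genes (rows, grouped by superfamily and family) in the 9 libraries (columns), as log2(CPM + 1) minus the mean of the gene over the 9 libraries, with colours capped at -4 and 4. Most rows are blue in the 3 high-fat diet columns, Gstm5, Gstm7 and Cyp2b10 are red there, and a block of genes is dark red in chow replicate 2 alone.

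**Figure D3:**
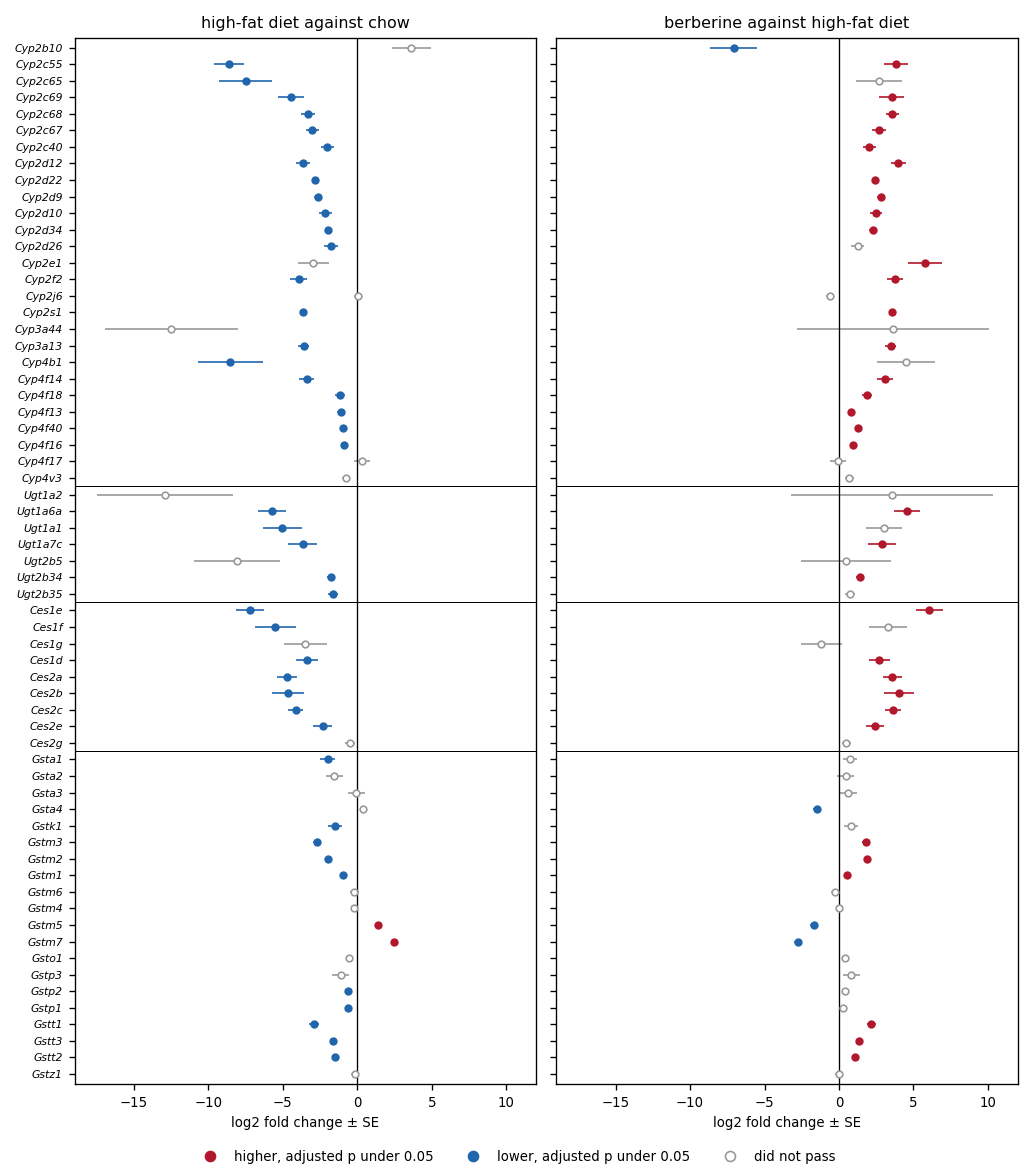
Log2 fold change ± SE from edgeR (horizontal axis) of the 63 tested genes (vertical axis, in the same order as the heat map) for the high-fat diet against chow and for berberine against the high-fat diet. Filled points passed at an adjusted p under 0.05, 43 lower and 2 higher on the left, 34 higher and 4 lower on the right, and wide bars belong to genes such as Cyp3a44 and Ugt1a2 that were present in 1 chow library.

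Cytochromes P450 of the Cyp2c family lie side by side on chromosome 19 and oxidise drugs as well as arachidonic acid. All 6 tested genes of the 15 in the family fell on the high-fat diet, and 5 of them were higher with berberine. Cyp2c55, an arachidonic acid oxidising enzyme known for its high level in mouse colon (chr19:39007019-39042693 on the plus strand in GRCm38), was the most abundant tested gene of the whole set, with a mean of 220.1 FPKM. It stood at 819.9, 3419 and 344 CPM in the chow libraries, 5.77, 2.49 and 3.33 CPM in the high-fat diet libraries and 37.6, 61.2 and 66.5 CPM in the berberine libraries. All 3 groups were apart: chow was highest, the high-fat diet lowest, and the berberine libraries lay in between, nearer to the high-fat diet in CPM. The log2 fold change was -8.62 ± 1.0 (SE) for the high-fat diet against chow, 395-fold lower (edgeR adjusted p = 0.000619), and 3.83 ± 0.81 for berberine against the high-fat diet, 14.3-fold higher (adjusted p = 0.00854). Against chow the berberine value was -4.79 ± 0.84, which did not pass in edgeR (adjusted p = 0.142). With berberine replicate 3 as the lone library of its group the second log2 value was as large, 4.1, but did not pass (edgeR adjusted p = 0.0593).

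The other Cyp2c genes were far less abundant. Cyp2c68 stood at 57.1, 27.5 and 61.2 CPM in the chow libraries, 6.68, 5.63 and 2.25 CPM in the high-fat diet libraries and 46.6, 63.3 and 64 CPM in the berberine libraries, with the high-fat diet below all others and chow and berberine overlapping. Its log2 fold changes were -3.32 ± 0.45 (adjusted p = 0.0012) and 3.58 ± 0.45 (adjusted p = 0.000933) in edgeR. Cyp2c67, Cyp2c69 and Cyp2c40 moved the same way, with high-fat diet changes of -3.03, -4.45 and -2.02 and berberine changes of 2.69, 3.55 and 2.04. Without high-fat diet replicate 1 the values of Cyp2c69 were larger, -6.26 and 5.38. Cyp2c65 was high in a single library: chow had 4.57, 150.0 and 3.69 CPM, the high-fat diet 0.596, 0 and 0.241 CPM and berberine 1.26, 2.46 and 1.78 CPM. Its fall on the high-fat diet passed with chow replicate 2 (log2 -7.51 ± 1.81, edgeR adjusted p = 0.0142) and without it (-3.85, adjusted p = 0.0327). These genes are close paralogs, so reads could be split between them in the authors' counting and single values are uncertain.

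The 5 Cyp2c genes that fell besides Cyp2c55 have a sequence feature in common that the choice by name did not use. Promoter windows from 250 bases before to 50 after each start, from RefSeq on GRCm38.p6, were found for 119 of the 141 genes, and both strands were searched for the letters CAAAGTCCA, a binding motif of the HNF4 type. The motif stood in 0.47% of all 32851 windows and in 10 of the 135 windows of drug metabolism genes, 6 of the Cyp2c family and 4 of the Cyp3a family. The tested genes among them were Cyp2c40, Cyp2c65, Cyp2c67, Cyp2c68 and Cyp2c69. Their stretches are shown because these genes fell together and lie in 1 cluster: chr19:39812831-39812879 (Cyp2c40, minus strand), chr19:39060870-39060918 (Cyp2c65, plus strand), chr19:39649139-39649187 (Cyp2c67, minus strand), chr19:39741150-39741198 (Cyp2c68, minus strand) and chr19:39886816-39886864 (Cyp2c69, minus strand), each read 5′ to 3′ on the strand of the gene with the motif in capitals and 20 bases on either side.
Cyp2c40: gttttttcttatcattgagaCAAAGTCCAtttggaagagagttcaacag
Cyp2c65: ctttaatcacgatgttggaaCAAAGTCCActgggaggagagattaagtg
Cyp2c67: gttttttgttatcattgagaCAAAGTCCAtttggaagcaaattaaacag
Cyp2c68: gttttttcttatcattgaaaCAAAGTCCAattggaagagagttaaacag
Cyp2c69: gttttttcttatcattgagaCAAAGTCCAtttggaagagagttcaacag
The stretches of Cyp2c40 and Cyp2c69 are equal at 49 of 49 bases, that of Cyp2c68 differs from both at few positions (46 equal bases), and that of Cyp2c65 is the most distant, with 27 to 32 equal bases, a count that takes in the motif itself. The other 4 are near copies, with 43 to 49 equal bases in each pair, so their motifs are not independent of each other. The window of Cyp2c55, the gene with the largest fall that passed, is shown for contrast (chr19:39006769-39007068, plus strand, no capitals since these letters are not in it).
Cyp2c55: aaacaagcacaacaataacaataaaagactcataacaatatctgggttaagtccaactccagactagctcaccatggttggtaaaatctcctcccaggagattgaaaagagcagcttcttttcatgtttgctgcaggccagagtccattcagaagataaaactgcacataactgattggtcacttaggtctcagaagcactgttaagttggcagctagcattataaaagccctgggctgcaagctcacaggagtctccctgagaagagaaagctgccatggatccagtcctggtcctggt
A match describes letters in a window and is neither a bound site nor a cause. The letters GCGTG, the core that the aryl hydrocarbon receptor binds, stood in 32.39% of all windows and in 17.78% of those of drug metabolism genes. The mRNA of Hnf4a, the nuclear receptor the motif is named for, stood at 754, 878 and 683 CPM in the chow libraries, 275, 423 and 371 CPM in the high-fat diet libraries and 715, 818 and 807 CPM in the berberine libraries. The high-fat diet libraries lay below all others (log2 -1.12 ± 0.18, edgeR adjusted p = 0.0028), and berberine was higher than the high-fat diet (1.13 ± 0.18, adjusted p = 0.00268).

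The Cyp2d family, whose human counterpart is known for oxidising many drugs, moved largely together. Its genes are close paralogs on chromosome 15, so reads could be split between them and their changes are not independent of each other. All 6 tested genes of 8 fell on the high-fat diet by 1.79 to 3.65 on the log2 scale, and 5 were higher with berberine than on the high-fat diet, Cyp2d26 being the exception (adjusted p = 0.073 in edgeR). Cyp2d34 was the most abundant, at 334, 289.9 and 401 CPM in the chow libraries, 95, 97.8 and 72.7 CPM in the high-fat diet libraries and 293, 439 and 544 CPM in the berberine libraries. Its high-fat diet libraries lay below all others, and chow and berberine overlapped (log2 -1.95 ± 0.24, edgeR adjusted p = 0.000823, and 2.26 ± 0.25, adjusted p = 0.000476). Cyp2d22 stood at 58.9, 44.8 and 63.6 CPM in the chow libraries, 7.28, 7.42 and 8.76 CPM in the high-fat diet libraries and 34.5, 50.8 and 42.6 CPM in the berberine libraries, and the spread within groups was small (log2 -2.83 ± 0.20, edgeR adjusted p = 0.000103, and 2.45 ± 0.20, adjusted p = 0.000142). Cyp2d10 and Cyp2d9 fell by 2.14 and 2.64 and were higher with berberine by 2.51 and 2.83. Chow replicate 2, the highest library for many other genes, was the lowest chow library for 5 of these genes, as it was for Cyp2d10 with 50.2, 21.2 and 71.9 CPM on chow.

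Cyp2s1, a P450 of epithelia outside the liver that dioxin induces, had the smallest p of the whole set in both comparisons. It stood at 127, 143 and 174 CPM in the chow libraries, 10.3, 11 and 14.3 CPM in the high-fat diet libraries and 136, 162 and 119.7 CPM in the berberine libraries. All high-fat diet libraries were far below all others, and chow and berberine overlapped. The log2 fold change was -3.64 ± 0.20 for the high-fat diet against chow, 12.5-fold lower (edgeR adjusted p = 5.1e-05), and 3.56 ± 0.20 for berberine against the high-fat diet, 11.8-fold higher (adjusted p = 4.62e-05). Cyp2f2, best known as the naphthalene oxidising enzyme of the airway, followed the same course (65.1, 33.5 and 46.8 CPM, 4.49, 3.74 and 1.24 CPM and 22.8, 48.2 and 57.2 CPM on chow, the high-fat diet and berberine; log2 -3.94 ± 0.55 and 3.76 ± 0.55).

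Cyp3a enzymes handle the widest range of drugs in liver and gut, and Cyp3a13 was the gene of this family that the colon expressed in every library, at 32.5, 67.2 and 40.4 CPM in the chow libraries, 5.28, 3.19 and 3.06 CPM in the high-fat diet libraries and 31.1, 49.6 and 48.5 CPM in the berberine libraries. The high-fat diet libraries lay below all others (log2 -3.6 ± 0.36, edgeR adjusted p = 0.000375), and berberine was higher (log2 3.48 ± 0.36, adjusted p = 0.000398) and overlapped chow. The other tested gene, Cyp3a44, was present at 35.1 CPM in chow replicate 2, at 0.0775 CPM in berberine replicate 1 and at 0 in the other 7 libraries. Of the 6 tested Cyp4f genes, which oxidise leukotrienes and fatty acids, 5 fell and the same number were higher with berberine, led by Cyp4f14 at 58.9, 162 and 61.5 CPM in the chow libraries, 10.0, 9.5 and 7.21 CPM in the high-fat diet libraries and 35.2, 91.9 and 103 CPM in the berberine libraries (log2 -3.4 ± 0.52 and 3.1 ± 0.52). The falls of Cyp4f40 and Cyp4f18 were each lost when certain single libraries were left out, as was the berberine difference of Cyp4f13. Cyp4b1, another fatty acid and drug oxidising P450, stood at 1.65, 86.4 and 1.96 CPM on chow and at no more than 0.241 CPM on the high-fat diet, so its value rests largely on chow replicate 2. Cyp2j6 of the epoxygenase family did not pass in either comparison (log2 0.03 ± 0.26 and -0.62 ± 0.26).

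A pair of cytochromes P450 departed from this pattern, Cyp2b10 in both comparisons and Cyp2e1 in its berberine libraries. Cyp2b10, the classical target of the receptor CAR in mouse liver, was low everywhere but highest on the high-fat diet, at 0.49, 0 and 1.74 CPM in the chow libraries, 3.23, 9.74 and 14.7 CPM in the high-fat diet libraries and 0.0775, 0.119 and 0 CPM in the berberine libraries. The 3 high-fat diet libraries lay above all others, and the berberine libraries were at or under 3 fragments per library. The whole Cyp2b family summed to 1.44, 4.37 and 6.31 FPKM on the high-fat diet. On chow it summed to at most 0.747 FPKM and with berberine to at most 0.0904 FPKM. Cyp2b10 thus passed the filter through the high-fat diet libraries, so its test is not independent of the filter. Berberine against the high-fat diet gave a log2 fold change of -7.08 ± 1.6 (edgeR adjusted p = 0.0114), and the high-fat diet against chow gave 3.62 ± 1.3, which did not pass (adjusted p = 0.0636) though DESeq2 and limma called it. Cyp2e1, which oxidises ethanol and small solvents and is also found in fat tissue, stood at 5.06, 11.7 and 10.5 CPM in the chow libraries, 0.776, 1.6 and 1.13 CPM in the high-fat diet libraries and 117, 73.3 and 2.78 CPM in the berberine libraries. Its high-fat diet libraries lay below all chow libraries (log2 -2.96), which did not pass in the main edgeR fit. DESeq2 and the edgeR fit of only the 2 groups called this fall. It also passed in edgeR without berberine replicate 3 (adjusted p = 0.00258). Berberine replicates 1 and 2 were far above every other library. Berberine replicate 3 lay between the high-fat diet and chow ranges, and the 3 berberine libraries stood in the same order as for the adipocyte markers. The difference from the high-fat diet passed with all libraries (log2 5.79 ± 1.16, edgeR adjusted p = 0.00681) and not with berberine replicate 3 alone (1.26, adjusted p = 0.216).

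**Figure D4:**
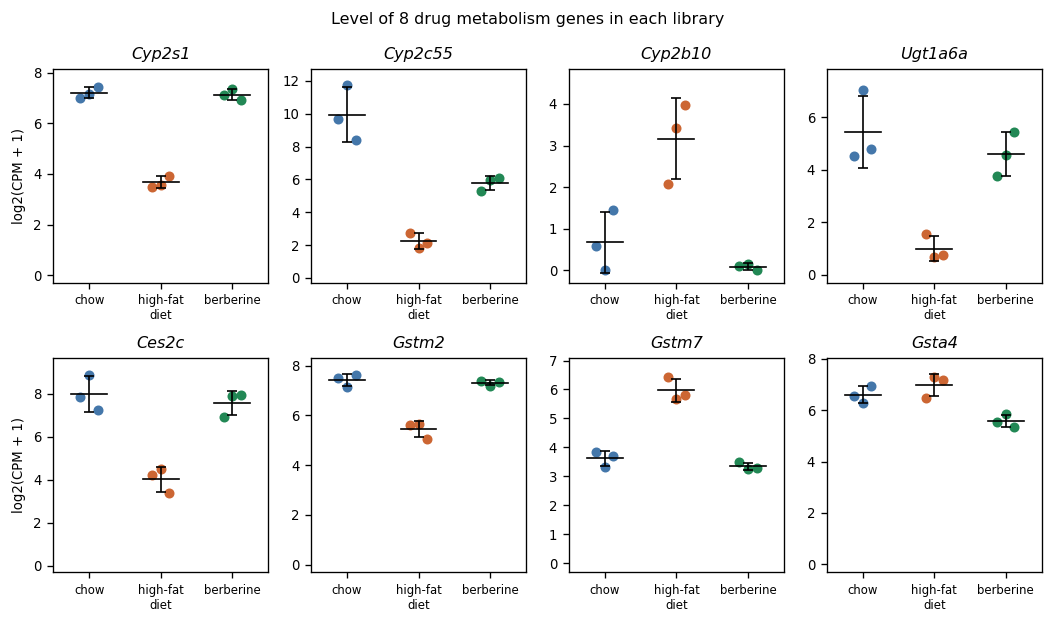
Level of 8 drug metabolism genes in each library as log2(CPM + 1) (vertical axis), by group. Points are libraries in the order of replicates, horizontal bars the group mean and error bars the SD over 3 libraries, and the high-fat diet lies lowest for Cyp2s1, Cyp2c55, Ugt1a6a, Ces2c and Gstm2 and highest for Cyp2b10 and Gstm7.

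Carboxylesterases were lowered about as often as the P450 genes: of the 9 tested, 7 fell on the high-fat diet and 6 were higher with berberine than on the high-fat diet. Ces2c, an intestinal esterase that also cuts acylglycerols, was the most abundant, with a mean of 62.2 FPKM, and stood at 228, 476 and 151 CPM in the chow libraries, 17.4, 21.5 and 9.29 CPM in the high-fat diet libraries and 122, 236 and 245 CPM in the berberine libraries. Every high-fat diet library lay below all others, while chow and berberine overlapped. The log2 fold change was -4.15 ± 0.53, 17.7-fold lower (edgeR adjusted p = 0.000943), and 3.64 ± 0.52 with berberine, 12.5-fold higher (adjusted p = 0.00155). Ces2a followed at 67.4, 273 and 52.4 CPM in the chow libraries, 5.72, 5.74 and 3.16 CPM in the high-fat diet libraries and 43.7, 67.4 and 62.2 CPM in the berberine libraries, with log2 fold changes of -4.75 ± 0.67 and 3.57 ± 0.64. Ces2e was lowered less (-2.33 ± 0.62), a call that leaving out replicate 1 or replicate 3 of the high-fat diet removed.

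Among the Ces1 genes, Ces1e stood at 7.92, 21.9 and 7.42 CPM in the chow libraries, 0.166, 0.0687 and 0 CPM in the high-fat diet libraries and 3.55, 6.68 and 6.46 CPM in the berberine libraries. The high-fat diet libraries held at most 3 fragments each, so the fitted fold depends on the prior count. Both changes passed (log2 -7.23 ± 0.95, adjusted p = 0.00102, and 6.07 ± 0.91, adjusted p = 0.00193, edgeR). Ces1d, a triacylglycerol lipase of liver and fat cells, had 24.7, 80.8 and 25.9 CPM on chow, 2.19, 2.52 and 7.89 CPM on the high-fat diet and 34.4, 38 and 10.7 CPM with berberine. Berberine replicate 3, the library with the fewest adipocyte markers of its group, was the lowest of the 3, and the difference from the high-fat diet (log2 2.72 ± 0.73, edgeR adjusted p = 0.0232) was lost without either of berberine replicates 1 and 2 and without either of high-fat diet replicates 1 and 2. Ces1f and Ces1g were high in chow replicate 2 alone, where they reached 135 and 107 CPM, while the highest other libraries had 16.3 and 4.02 CPM, and Ces1g passed in neither comparison. Ces2g, with 31.9, 13.2 and 29.5 CPM on chow and 13.6, 20.7 and 18.4 CPM on the high-fat diet, did not pass (log2 -0.50 ± 0.32, edgeR adjusted p = 0.274), though it did without chow replicate 2 (-0.81, adjusted p = 0.0306).

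Among phase II enzymes, 5 of the 7 tested UDP-glucuronosyltransferases fell on the high-fat diet and 3 were higher with berberine. Ugt2b34 was the most abundant by mean FPKM (57.5) and stood at 382, 553 and 315 CPM in the chow libraries, 95.4, 135 and 130.0 CPM in the high-fat diet libraries and 242, 356 and 363 CPM in the berberine libraries. The high-fat diet libraries lay below all others (log2 -1.79 ± 0.26, 3.47-fold lower, edgeR adjusted p = 0.00151), and berberine was 2.67-fold higher (log2 1.42 ± 0.25, adjusted p = 0.00413). Ugt2b35 fell as well (-1.66 ± 0.34) but the berberine difference did not pass (0.75 ± 0.34, edgeR adjusted p = 0.123).

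The Ugt1a genes are built from alternative first exons joined to shared downstream exons on chromosome 1, so reads from the shared exons cannot be assigned to a single gene and the split between them is uncertain. Ugt1a6a, which glucuronidates simple phenols, stood at 22, 129 and 26.5 CPM in the chow libraries, 1.94, 0.618 and 0.676 CPM in the high-fat diet libraries and 12.8, 22.5 and 42.8 CPM in the berberine libraries. Groups were apart for the high-fat diet, and chow replicate 2 was 5.31 times the mean of the other chow libraries. The log2 fold change was -5.76 ± 0.94 (adjusted p = 0.00273, edgeR) with that library and -4.48 (adjusted p = 0.00317) without it, and berberine was higher than the high-fat diet by 4.58 ± 0.89 (adjusted p = 0.00595). Ugt1a1, the bilirubin glucuronidating enzyme, had 52.8, 513 and 70.2 CPM on chow, 2.47, 0.653 and 16.4 CPM on the high-fat diet and 42.6, 56.3 and 58.5 CPM with berberine. Its fall (-5.03 ± 1.32, edgeR adjusted p = 0.02) did not pass without chow replicate 2 (adjusted p = 0.051) or without high-fat diet replicate 1. Ugt1a7c had 199, 405 and 54.7 CPM, 26.7, 23.5 and 1.8 CPM and 111, 134 and 136 CPM in the same order of groups, and its calls (-3.66 ± 0.97 and 2.87 ± 0.94) were lost when certain single libraries were left out. Ugt1a2 and Ugt2b5 were present at 48.1 and 36.2 CPM in chow replicate 2 and at no more than 0.181 CPM in any other library.

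Glutathione S-transferases were the least lowered superfamily and held the only genes that rose. The 7 mu class genes lie in a row on chromosome 3, and genes of the row moved in opposite directions. Gstm7 (chr3:107926334-107931817, minus strand) stood at 13.3, 9.05 and 11.9 CPM in the chow libraries, 85, 49.6 and 55.4 CPM in the high-fat diet libraries and 10.2, 8.52 and 8.83 CPM in the berberine libraries. All high-fat diet libraries lay above all others, and chow and berberine overlapped. The log2 fold change was 2.47 ± 0.24, 5.54-fold higher (edgeR adjusted p = 0.000342), and with berberine -2.78 ± 0.25, 6.89-fold lower (adjusted p = 0.000218). Its neighbour Gstm5 (chr3:107895821-107898686, plus strand) stood at 35, 33.5 and 39.2 CPM in the chow libraries, 142, 70.9 and 74.7 CPM in the high-fat diet libraries and 27.9, 28 and 34.3 CPM in the berberine libraries, again with the high-fat diet above all others. It rose by 1.42 ± 0.26 (edgeR adjusted p = 0.0046) and was lower with berberine (log2 -1.67 ± 0.26, adjusted p = 0.00234). Both directions held in each of the 9 fits with 1 library left out.

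Further along the same row, Gstm2 (chr3:107981702-107986453, minus strand) stood at 181, 139 and 195 CPM in the chow libraries, 47.8, 49.2 and 32.5 CPM in the high-fat diet libraries and 166, 145 and 160.4 CPM in the berberine libraries. Here the high-fat diet lay below all others, the reverse of Gstm5 and Gstm7 (log2 -1.99 ± 0.19, adjusted p = 0.000333, and 1.86 ± 0.19, adjusted p = 0.000392, edgeR). Gstm3 and Gstm1 fell too, by 2.74 ± 0.25 and 0.95 ± 0.14, and were higher with berberine by 1.8 ± 0.24 and 0.57 ± 0.14. The berberine difference of Gstm1 did not pass once high-fat diet replicate 3 or berberine replicate 2 was left out. Gstm6 and Gstm4, which lie on either side of the 3 lowered genes, passed in neither comparison, with log2 values of -0.20 ± 0.30 and -0.19 ± 0.20 for the high-fat diet against chow. The mu class genes are close paralogs, so some reads could be split between them.

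**Figure D5:**
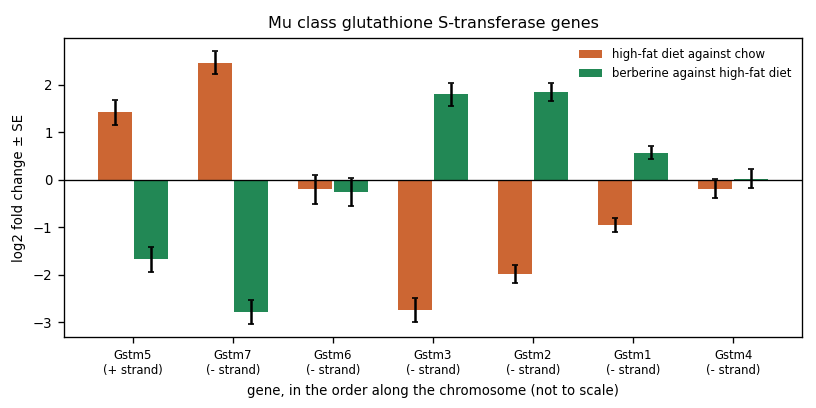
Log2 fold change (bars, vertical axis) ± SE of the 7 mu class genes, placed in the order in which they lie on the chromosome (horizontal axis, not to scale), for the high-fat diet against chow and berberine against the high-fat diet. Gstm5 and Gstm7 point up on the high-fat diet, Gstm3, Gstm2 and Gstm1 point down, and Gstm6 and Gstm4 stay near 0.

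The promoter windows of the risen genes are shown beside that of Gstm2, because they moved in opposite directions. Capitals mark TGACNNNGC, the core of the antioxidant response element that NRF2 is known to bind, searched on both strands. It stood in 12.39% of all windows and in 6.67% of the windows of drug metabolism genes. Among the 12 mu class windows it stood in 2 (16.67%), that of Gstm5 and the downstream one of the pair of overlapping Gstm7 windows. It also stood in 3 of the 42 windows of drug metabolism genes that fell on the high-fat diet (7.14%). Those were windows of Cyp4f14, Cyp4f18 and Cyp2c65. Windows of Cyp2j6 and Gsta3, which passed in neither comparison, held it too. The windows are chr3:107895604-107895903 (Gstm5, plus strand), chr3:107931768-107932067 and chr3:107931565-107931864 (Gstm7 upstream and downstream, minus strand) and chr3:107986371-107986670 (Gstm2, minus strand), in GRCm38.p6 from RefSeq, 5′ to 3′ on the strand of the gene.
Gstm5: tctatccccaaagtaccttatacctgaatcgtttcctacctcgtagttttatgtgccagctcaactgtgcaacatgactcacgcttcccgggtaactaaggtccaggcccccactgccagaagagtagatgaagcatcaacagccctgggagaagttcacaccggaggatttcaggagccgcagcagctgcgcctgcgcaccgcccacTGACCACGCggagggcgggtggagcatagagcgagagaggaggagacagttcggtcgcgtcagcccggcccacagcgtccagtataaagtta
Gstm7 upstream: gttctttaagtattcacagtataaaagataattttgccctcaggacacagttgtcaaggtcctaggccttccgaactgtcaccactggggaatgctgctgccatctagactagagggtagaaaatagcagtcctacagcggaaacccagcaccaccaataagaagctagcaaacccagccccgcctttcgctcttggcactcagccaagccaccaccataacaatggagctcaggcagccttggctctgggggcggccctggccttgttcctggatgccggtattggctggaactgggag
Gstm7 downstream: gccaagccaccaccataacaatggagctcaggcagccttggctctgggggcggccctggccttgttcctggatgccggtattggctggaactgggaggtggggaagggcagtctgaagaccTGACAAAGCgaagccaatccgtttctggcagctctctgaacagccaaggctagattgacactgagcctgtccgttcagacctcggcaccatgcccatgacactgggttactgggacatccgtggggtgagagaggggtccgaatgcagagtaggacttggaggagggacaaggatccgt
Gstm2: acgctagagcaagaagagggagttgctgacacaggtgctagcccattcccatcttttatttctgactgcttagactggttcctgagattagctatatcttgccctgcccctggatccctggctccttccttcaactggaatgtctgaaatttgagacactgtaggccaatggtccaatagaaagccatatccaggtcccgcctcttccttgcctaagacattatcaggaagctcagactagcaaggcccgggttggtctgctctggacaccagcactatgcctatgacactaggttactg
The transcript start inside the upstream Gstm7 window is the 5′ end of the deposited gene, and neither that window nor the Gstm2 window holds these letters. Matches and their absence describe letters in these windows only. The mRNA of Nfe2l2, which encodes NRF2, did not pass (log2 -0.40 ± 0.20 for the high-fat diet against chow, edgeR adjusted p = 0.16), and that of its partner Mafg rose (1.43 ± 0.13, adjusted p = 0.000256), with 82, 101 and 91.1 CPM on chow, 279, 223 and 237 CPM on the high-fat diet and 98.6, 98.1 and 109.6 CPM with berberine.

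The theta class, whose enzymes act on small halogenated compounds, fell in all 3 tested genes and was higher with berberine in all 3. Gstt1 stood at 41.4, 30.5 and 39.8 CPM in the chow libraries, 4.27, 2.89 and 7.68 CPM in the high-fat diet libraries and 21.9, 24.5 and 20.8 CPM in the berberine libraries. All 3 groups were apart, with berberine between chow and the high-fat diet (log2 -2.91 ± 0.34, 7.53-fold lower, adjusted p = 0.000627, and 2.18 ± 0.33, adjusted p = 0.00206, edgeR). Gstt2 had 38.1, 45.4 and 48.6 CPM, 16, 13.7 and 16.2 CPM and 36.2, 30.6 and 32.1 CPM, also with berberine in between (-1.52 ± 0.14 and 1.1 ± 0.14). Gstt3 changed by -1.61 ± 0.21 and 1.33 ± 0.21.

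Of the other classes, 1 of 4 alpha, 2 of 3 pi, 0 of 1 omega, 0 of 1 zeta and 1 of 1 kappa class genes fell on the high-fat diet, and none of these 10 was higher with berberine. Gstp1, the main pi class enzyme of epithelia and the most abundant glutathione S-transferase here with a mean of 107 FPKM, stood at 196, 287 and 213 CPM in the chow libraries, 158, 150.1 and 151 CPM in the high-fat diet libraries and 158, 199 and 189.6 CPM in the berberine libraries. Its fall of 0.60 ± 0.16 on the log2 scale (edgeR adjusted p = 0.021) was no longer called once chow replicate 2, high-fat diet replicate 2 or high-fat diet replicate 3 was left out. Gsta1, Gsta2 and Gsta3, enzymes of the alpha class that also isomerise steroids and reduce peroxides, were far lower, with means of 5.76, 1.73 and 1.46 FPKM, and only Gsta1 fell on the high-fat diet (-2.0 ± 0.48, edgeR adjusted p = 0.0138). Gstz1, of the zeta class that breaks down tyrosine products, did not pass (-0.15 ± 0.26 and -0.03 ± 0.26). Gsto1, an omega class reductase, did not pass in either comparison (-0.55 ± 0.21 and 0.42 ± 0.21). Gsta4, which conjugates the aldehydes of lipid peroxidation, stood at 93, 77.6 and 123 CPM in the chow libraries, 88.8, 155 and 145 CPM in the high-fat diet libraries and 45.9, 56 and 39.7 CPM in the berberine libraries. Chow and the high-fat diet overlapped (log2 0.40 ± 0.25, edgeR adjusted p = 0.254), and the berberine libraries lay below all of both (against the high-fat diet -1.46 ± 0.26, adjusted p = 0.00379; against chow -1.05 ± 0.25, adjusted p = 0.274, called by DESeq2 alone). The fall of Gstk1, an enzyme of mitochondria and peroxisomes, was lost in 6 of the 9 fits with 1 library left out, and that of Gstp2 in 4.

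Some genes lay below chow with berberine without overlapping it. Besides Cyp2c55, Cyp2c65 and Gsta4 these were Cyp2c69, Ces1e, Gstm1, Gstm3, Gstm6, Gstt1 and Gstt2, and Cyp4f18 was the gene that lay above. Gstm3 had 5.36, 5.94 and 5.56 CPM on chow and 2.85, 3.47 and 2.46 CPM with berberine (log2 -0.94 ± 0.24, edgeR adjusted p = 0.297), against 0.901, 0.807 and 0.805 CPM on the high-fat diet. None of these differences passed in edgeR, which does not show that the berberine and chow levels were equal.

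Of the 36 families in the set, 14 had no gene above the filter: Cyp1a, Cyp1b, Cyp2a, Cyp2g, Cyp2r, Cyp2t, Cyp2u, Cyp2w, Cyp4a, Cyp4x, Ces3, Ces4, Ces5 and Ugt2a. The 4 Cyp2a genes, which oxidise steroids and nicotine-like compounds, summed to 1.34, 1.04 and 0.989 CPM on chow, 0.0832, 0 and 0.177 CPM on the high-fat diet and 0.291, 0.596 and 0.577 CPM with berberine. The 3 groups did not overlap, though the high-fat diet sums were under the 3 fragments per library taken as the floor. Cyp2u1, the only Cyp2u gene, overlapped between all groups, with 1.73, 2.36 and 3.88 CPM, 2.33, 1.68 and 3.32 CPM and 2.81, 1.65 and 2.82 CPM. Just above the filter lay Cyp2c40, Gsta3 and Cyp2b10, with means of 1.32, 1.46 and 1.46 FPKM, and just below it Cyp2j9, Ces2f and Cyp1a1, with 0.736, 0.712 and 0.537 FPKM. Cyp1a1, the classical target of the aryl hydrocarbon receptor, had 2.12, 0.981 and 0.399 CPM on chow, a count of 0 in all 3 high-fat diet libraries and 0.0775, 10.1 and 1.88 CPM with berberine, where 3 fragments are 0.166 to 0.233 CPM. Cyp1b1 was likewise at 0 in all 3 high-fat diet libraries, and had 1.24, 2.6 and 1.11 CPM on chow and 0.969, 1.44 and 0.313 CPM with berberine. Ces2f was highest on the high-fat diet, with 4.78, 11.1 and 5.63 CPM against 1.62, 0.415 and 4.52 CPM on chow and 2.44, 3.35 and 0.824 CPM with berberine. With the filter lowered to a mean of 0.1 FPKM, Cyp1a1, Cyp1b1, Cyp2j9, Cyp4x1 and Ugt1a6b also passed between the high-fat diet and chow in edgeR. Ugt2b36 and Cyp2c66 were found almost solely in chow replicate 2, at 5.39 and 5.32 CPM.

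The receptors that control these genes were read from a list of 20 regulators, of which 18 were tested. On the high-fat diet 9 fell and 2 rose, where 16.6% and 15.2% of all tested genes did, and with berberine 9 were higher and 1 lower than on the high-fat diet, where 15.8% and 14.9% were. Nr1i2, which encodes PXR, stood at 103, 101 and 102 CPM in the chow libraries, 29.3, 35.6 and 42.4 CPM in the high-fat diet libraries and 84.6, 80.7 and 99.5 CPM in the berberine libraries. The high-fat diet libraries lay below all others (log2 -1.51 ± 0.15, edgeR adjusted p = 0.000378), and berberine was higher (1.3 ± 0.15, adjusted p = 0.000635). Vdr, the vitamin D receptor, which also drives Cyp3a genes, fell by 2.69 ± 0.23 (edgeR adjusted p = 0.000226). Nr1i3, which encodes CAR, did not pass (-1.1 ± 0.49, edgeR adjusted p = 0.122). Ahr, the aryl hydrocarbon receptor, was slightly higher on the high-fat diet (0.43 ± 0.14, edgeR adjusted p = 0.047), a call that was lost in 7 of the 9 fits with 1 library left out.

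A list of 10 genes took in those that pass electrons to the P450 enzymes and those that make, bind or break down haem. Of these 1 rose and 1 fell on the high-fat diet, not above the shares of all tested genes that did, 15.2% and 16.6%. Por, which passes electrons to all microsomal P450 enzymes, had 101, 193 and 109 CPM on chow and 102, 142 and 84.3 CPM on the high-fat diet (log2 -0.30 ± 0.28, edgeR adjusted p = 0.443), and Cyb5a changed by -0.24 ± 0.12 (adjusted p = 0.17). Hmox1, which breaks haem down, rose (1.83 ± 0.42, edgeR adjusted p = 0.012), and Pgrmc1, a haem-binding partner of P450 enzymes, fell (-0.75 ± 0.16, adjusted p = 0.00872).

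Most of the other tested enzymes of the same steps fell alongside. The phase I gene Aox4, too low to test with a mean of 0.955 FPKM, went the other way. It had 0.131, 0.321 and 0.059 CPM on chow and 37.5, 20.2 and 19.1 CPM on the high-fat diet. With berberine it had 0.0775, 0.119 and 0.0494 CPM. Of 26 tested phase I enzymes outside the set, 17 fell and 2 rose on the high-fat diet (16.6% and 15.2% of all tested genes), with a median log2 fold change of -1.49, and 13 were higher and 2 lower with berberine (15.8% and 14.9% of all tested genes). Maob and Maoa, the monoamine oxidases, fell by 2.66 ± 0.21 and 2.5 ± 0.31, and Aldh1b1, a mitochondrial aldehyde dehydrogenase, by 2.91 ± 0.26 (adjusted p = 0.00014, 0.000773 and 0.000254 in edgeR). Of 22 tested phase II genes outside the set, 17 fell and 1 rose, with a median of -1.34, and 12 were higher and 1 lower with berberine, against the same shares of all tested genes. Sult1a1, a phenol sulfotransferase, stood at 289, 469 and 208 CPM in the chow libraries, 7.24, 7.97 and 11.3 CPM in the high-fat diet libraries and 174, 148 and 333 CPM in the berberine libraries. Its high-fat diet libraries were far below all others (log2 -5.19 ± 0.45, edgeR adjusted p = 0.000226, and 4.62 ± 0.44, adjusted p = 0.000287). Sult1b1 and the microsomal glutathione transferase Mgst1 fell by 1.7 ± 0.14 and 1.83 ± 0.20.

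Transporters were called in both directions. Of 15 tested, 6 fell and 3 rose on the high-fat diet, where 16.6% and 15.2% of all tested genes did, and 5 were higher and 3 lower with berberine, where 15.8% and 14.9% were, so the 3 in each case are near the share of all genes. Abcb1a, the P-glycoprotein that pumps drugs back into the gut lumen, stood at 545, 1083 and 361 CPM in the chow libraries, 31.8, 30.0 and 14.1 CPM in the high-fat diet libraries and 218, 246 and 270.5 CPM in the berberine libraries. All high-fat diet libraries were below all others (log2 -4.71 ± 0.48, edgeR adjusted p = 0.000392), and berberine was higher (3.27 ± 0.45, adjusted p = 0.00134). Abcc1 and Abcc4, efflux pumps for glutathione conjugates and other organic anions, rose by 0.98 ± 0.12 and 2.36 ± 0.27 (edgeR adjusted p = 0.000866 and 0.000564) and were lower with berberine than on the high-fat diet (log2 -1.1 ± 0.12 and -2.34 ± 0.27). The other transporter that rose was Abcc2, with the largest log2 fold change of the list (5.13). It had 0.523, 1.09 and 0.974 CPM on chow and 54.1, 25.7 and 10.7 CPM on the high-fat diet. With berberine it had 0.446, 0.432 and 1.05 CPM (log2 -5.55 against the high-fat diet). No gene of these 5 lists passed between berberine and chow in edgeR.

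How far the calls rest on single libraries was read from 9 fits with 1 library left out each. Of the 45 genes called between the high-fat diet and chow, 34 passed in all 9. The 11 lost in at least 1 fit were Ugt1a1, Ugt1a7c, Ces2e, Ces1f, Cyp4f40, Cyp4f18, Cyp2d26, Cyp4b1, Gstp1, Gstp2 and Gstk1, and among them Ugt1a1, Ugt1a7c, Cyp2d26, Cyp4f40, Gstp1, Gstp2 and Gstk1 were lost without chow replicate 2. Some falls were smaller without chow replicate 2 and still passed. Their log2 values without that library were -7.22 for Cyp2c55, -3.56 for Ces2c, -3.61 for Ces2a, -2.6 for Ces2b, -1.29 for Ces2e, -2.99 for Ces1f and -4.48 for Cyp4b1. Of others that still passed, the values were -2.75 for Cyp4f14, -2.6 for Ces1d and -6.53 for Ces1e, while Ugt1a1, Ugt1a7c and Gstk1, whose calls were lost, gave -3.26, -2.86 and -0.72. Without high-fat diet replicate 1 the falls were larger for Ces1e (-8.45), Ugt1a6a (-6.51) and Cyp2c65 (-8.71), as were the berberine differences of Ces1e (7.31) and Ugt1a6a (5.34), and the fall of Cyp4b1 was smaller (-7.9). Without high-fat diet replicate 3 the falls were larger for Ces1d (-4.2), Ugt1a1 (-7.06) and Cyp4b1 (-13.84), though Cyp4b1 was at 0 in both remaining high-fat diet libraries, so that its fitted value depends on the prior count. The berberine difference of Ces1d was also larger (3.54). The fall of Gsta1 was -1.35 without chow replicate 3, and the berberine differences of Cyp2b10 and Cyp2e1 were -7.9 without berberine replicate 2 and 5.03 without berberine replicate 1. Of the 38 genes called between berberine and the high-fat diet, 32 passed in all 9, and the 6 lost in at least 1 were Ugt1a7c, Ces2e, Ces2b, Ces1d, Cyp4f13 and Gstm1. Without both berberine libraries with high adipocyte markers, 23 of the 38 still passed, among them Cyp2s1, Cyp2d34, Cyp2d22, Cyp3a13, Ces2c, Ces2a, Ugt1a6a, Ugt2b34, Gstm2, Gstm7 and Gstt1. Of the 15 that did not pass there, Cyp2e1 and Ces1d had smaller log2 values, 1.26 and 1.34 in place of 5.79 and 2.72. In 12 others, Cyp4f18, Cyp4f13, Cyp4f16, Cyp2c55, Cyp2c40, Cyp2c69, Ces2e, Ces2b, Ugt1a7c, Gstm5, Gsta4 and Gstm1, the log2 value moved by at most 0.27 and the call was lost with 1 library left in the group. The last, Cyp2b10, was at 0 in that library, so its fitted value depends on the prior count.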

How the data were processed

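Poly(A) RNA of 9 colonic tissue libraries (3 chow, 3 high-fat diet, 3 berberine) was sequenced with stranded preparation and molecular identifiers, per the labels' protocols. Each gene of the authors' table carries 9 FPKM values and 9 estimated counts, per the file headers. The deposited estimated counts are whole numbers in which 1 fragment is about 4 counts, judged from the pile-up of low values, and the deposited FPKM values are listed at 0.0001 where the count is 0. The build was GRCm38, and the tools named, per the submitters' processing notes, were StringTie 1.3.4d, HISAT2 2.0.4, cutadapt 1.9, edgeR, DESeq2 and UMI-tools. The step each tool served and the strand setting of the counting are not given in the sources used here.

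From the estimated counts, edgeR 4.0.16 in R 4.3.3 (TMM scaling, quasi-likelihood test, group means over all 9 libraries) tested the 14506 genes with a mean of 1 FPKM or more, which hold 98.9% of counts, with Benjamini-Hochberg adjustment over all of them. CPM and errors come from the same scaling, and a fold is a ratio of mean CPM. The SE is the log2 fold change divided by the square root of the F value. DESeq2 1.42.0, limma 3.58.1 on log2(FPKM + 1) and log2(FPKM + 0.1), no TMM, other filters, counts divided by 4, fits of 2 groups, a replicate block and fits with 1 library left out were the alternatives; the fit without berberine replicates 1 and 2 was added after seeing the data. The fit was tested on simulated data.

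The members and lists were chosen with earlier results of these data known. Per superfamily and comparison, the genes named were the 4 smallest p in each direction and the 3 highest mean FPKM, the 3 on either side of the filter, and from each list of related genes the 3 smallest p, with Ahr, Nr1i2, Nr1i3, Nfe2l2 and Por. Further members, Hnf4a, Abcc2, Aox4 and the motif sequences shown were chosen after their values were seen. In all 22 members, among them the Ugt1a genes, overlap another entry on the same strand. Positions are those of the deposited table. Promoter windows are from RefSeq on GRCm38.p6. No protein sequence was used.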

Additional observations from a re-analysis of the deposited data

How the results depend on the processing

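Over the 49 genes tracked through 19 alternatives, 2699 of 2793 results kept their side of the adjusted p threshold. Of the rest, 69 fell out of it and 25 came into it, and 0 calls were reversed. Log2 values without a call could turn their sign. That of Ces2c between berberine and chow was 0.08 without chow replicate 2 and -0.64 without chow replicate 1. Without berberine replicates 1 and 2, an alternative chosen after seeing the data that leaves 1 library in the group, drug metabolism genes changed against the high-fat diet numbered 23 (22 higher, 1 lower) instead of 38, and 1321 genes in all changed instead of 4460. Without TMM the median log2 fold change of all genes moved from 0.002 to 0.128 for the high-fat diet against chow and from -0.007 to -0.116 for berberine against the high-fat diet, far less than the medians of the set.

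With 1 library left out, the drug metabolism genes called ranged from 2 to 3 higher and 37 to 45 lower for the high-fat diet against chow, and from 28 to 38 higher and 4 to 5 lower for berberine against the high-fat diet, while genes of the whole table changed in the latter ranged from 2960 (without berberine replicate 2) to 4740. Between berberine and chow, DESeq2 called 4 drug metabolism genes, all 4 lower, and 378 genes of the whole table, against 7 in edgeR. That 7 became 2 with a filter at 0.1 FPKM, 2 with counts divided by 4, 2 with only the 2 groups compared, 3 without berberine replicates 1 and 2, and 1 to 7 with 1 library left out. The cause was not tested.

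Same-numbered libraries did not deviate together, with correlations of -0.1 to 0.16 and not every library closest to its own number. The main fit did not pair them by number. These deviations are taken from means of only 3 libraries, so the check cannot exclude that libraries were paired. With a replicate block the drug metabolism genes called were 42 for the high-fat diet against chow (2 higher, 40 lower; Cyp4b1, Gstk1 and Cyp2c65 were lost), 38 for berberine against the high-fat diet (Ces1d was lost and Cyp2d26 gained) and 0 for berberine against chow, and over all genes 4344, 4286 and 2 were called. Depth limits the genes under the filter: 3 fragments are 0.166 to 0.233 CPM, so differences of Cyp1a1 or Cyp1b1 from a count of 0 rest on few fragments.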
